A study of Mus musculus with 6 samples.

Results

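The 10 genes described here encode, apart from Pawr, mRNA-binding regulators of translation and proteins that work with them. They are Pabpc1 and Pabpc4, which encode cytoplasmic poly(A)-binding proteins, Fmr1, Fxr1 and Fxr2, which encode the FMRP family, Cyfip1 and Cyfip2, whose products bind FMRP, Syncrip and Khsrp, which encode KH-type or RRM-type RNA-binding proteins, and Pawr, which encodes the pro-apoptotic protein PAR-4. They were picked by gene symbol, by a rule that uses no measured value but was written with earlier results of these data known, and all 10 were found among the 48587 genes listed in the deposited table. In the study's text PABPC1, FMRP, CYFIP1 and SYNCRIP are named as proteins that co-precipitate with METTL7A1, and Pabpc1, Khsrp and Pawr have primers in its list for quantitative PCR. Pabpc4, Fxr1, Fxr2 and Cyfip2, paralogs of the co-precipitated proteins' genes, appear in neither place. RNA levels are what these libraries measure, and they hold no measurement of binding.

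Poly(A)-binding proteins coat the 3' tail of mRNAs, contact the cap-binding complex through eIF4G and so favour initiation. FMRP and its paralogs FXR1P and FXR2P bind many mRNAs and can hold translation back, in part through CYFIP1, which binds the cap-binding protein eIF4E and is also a subunit of the actin-regulating WAVE complex. SYNCRIP joins translation-repressing and mRNA-stabilising complexes, KHSRP (KSRP) recruits decay enzymes to mRNAs with AU-rich elements, and PAR-4 binds atypical protein kinase C and other partners.

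Total RNA was measured in 4T1 cells, a mouse mammary carcinoma line. The METTL7A1 group (3 libraries) came from cells stably transfected with full-length Mettl7a1 cDNA in the vector pBICEP-CMV-2, which carries a CMV promoter, and the mock group (3 libraries) from cells that received the empty vector. Selection was with 350 µg/ml G418, and the study refers to the protein as FLAG-tagged. Each group is described as a biological triplicate, but whether a line was a pool or 1 clone, and whether the triplicates were separate transfections, was not given in the sources used here, so p values measure the spread between these libraries, which may be technical.

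The libraries held 18386780 to 28459338 counts each, and the 10 genes took 0.201% to 0.255% of them. Mettl7a1 itself had 6355, 11358 and 10398 counts in the METTL7A1 libraries and 30, 30 and 29 in mock, so every library followed its label. AY036118, a gene of the ribosomal repeat, took 0.502% to 4.53% of counts in METTL7A1 libraries and 0.966% to 13.1% in mock, with mock replicate 1 standing apart as the highest. All 5 epithelial markers were expressed, with a summed level of 923 to 1190 counts scaled to a common library size (cpm) in METTL7A1 and 905 to 1120 cpm in mock. The leukocyte markers summed to 11.5 to 14.1 cpm in METTL7A1 and 4.87 to 6.28 cpm in mock, of which Cd68 made up nearly everything, while Cd3e was at 0 counts in all libraries and Ptprc reached at most 8. The endothelial (0.413 to 0.779 cpm), adipocyte (at most 0.121 cpm) and neuronal (at most 0.164 cpm) sums were close to 0. The part of these differences in the results below was not tested, other than by leaving out each library.

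The promoters of 3 genes are shown first: Pabpc4, which fell, Pawr, which rose, and Fmr1, whose METTL7A1 libraries all lay above mock without passing the test. Promoter windows of 300 bases (250 before the start and 50 after) were found in RefSeq for 8 of the 10 genes on build GRCm38.p6, the build of the count table (mm10), and there was none for Pabpc1 and Cyfip1. Only the bases upstream of any exon are printed, 5′ to 3′ on the strand of the gene, and capitals mark matches on either strand to the letters searched. These were the GC box GGGCGG (its complement is CCGCCC), the E-box CACGTG, the NRF1 core CGCATGCG, the CCAAT box and the TATA box TATAAA. The printed stretch of Pabpc4 is chr4:123282661-123282824 (plus strand), that of Fmr1, taken from the first of its overlapping windows, chrX:68678291-68678540 (plus strand) and that of Pawr chr10:108331939-108332188 (plus strand).
Pabpc4: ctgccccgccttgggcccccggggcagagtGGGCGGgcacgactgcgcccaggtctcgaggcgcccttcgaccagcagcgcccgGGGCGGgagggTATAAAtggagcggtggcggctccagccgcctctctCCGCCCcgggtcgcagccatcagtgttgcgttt
Fmr1: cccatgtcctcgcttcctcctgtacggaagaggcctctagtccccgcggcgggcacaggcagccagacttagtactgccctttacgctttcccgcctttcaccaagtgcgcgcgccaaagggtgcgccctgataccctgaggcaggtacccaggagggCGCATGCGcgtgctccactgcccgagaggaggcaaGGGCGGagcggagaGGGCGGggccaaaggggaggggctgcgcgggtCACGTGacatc
Pawr: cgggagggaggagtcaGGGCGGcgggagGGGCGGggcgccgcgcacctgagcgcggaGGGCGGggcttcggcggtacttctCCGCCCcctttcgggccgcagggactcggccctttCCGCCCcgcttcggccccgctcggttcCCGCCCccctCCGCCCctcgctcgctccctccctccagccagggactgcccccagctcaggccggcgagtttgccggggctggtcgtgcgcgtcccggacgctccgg

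The motifs found differed between the 3. The Pabpc4 window had 3 GC boxes and 1 TATA box, the Fmr1 window 2 GC boxes, 1 NRF1 core and 1 E-box, and the Pawr window 7 GC boxes and none of the other motifs. Each of the 8 genes with a window held at least 1 GC box, a motif present in 35.7% of all 32851 promoter windows in the table. The E-box was present in 7.15% and the NRF1 core in 1.87% of all windows, and among the 8 genes both were found in Fmr1 alone. A CCAAT box, present in 37.4% of all windows, was found in Khsrp, and the TATA box, present in 13.6%, in Pabpc4. In CpG content the windows lay above most others, with an observed to expected ratio of 0.74 to 1.06 against a median of 0.38 over all windows. A match is a description of letters and not a site of binding.

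The comparison asked whether the RNA of these genes changed with METTL7A1. In METTL7A1 cells Pabpc4, Cyfip1, Syncrip and Khsrp fell and Pawr rose, while the RNA of Pabpc1, by far the most abundant of the 10, stood at 971 ± 68.9 cpm against 980 ± 87.9 cpm in mock (SD, n = 3 each). All of these differences were small, with log2 fold changes between -0.39 and 0.27. In bulk RNA a change in the number of cells that express a gene and a change in RNA per cell cannot be told apart. Of the 10 genes 9 passed the abundance filter (at least 1 cpm in at least 3 libraries), and 5 of these 9 were called at an adjusted p under 0.05 (55.6%), 1 higher and 4 lower (edgeR quasi-likelihood test, Benjamini-Hochberg adjustment over 13166 genes). Among all genes tested 42.1% were called, 21.1% higher and 21% lower, so calls were common in this comparison. The median log2 fold change of the 9 was -0.12, beside -0.03 over all genes, and the median of the absolute values was 0.23, beside 0.25. At the thresholds of the study, an adjusted p under 0.01 with a log2 fold change over 1.5 in either direction, 0 of the 9 were called by edgeR, DESeq2 or limma's voom, against 2.48% of all genes by edgeR. An unadjusted edgeR p under 0.05 was found for 6 of the 9, beside 6597 of all 13166 genes tested. The groups did not overlap in 6 of the 9, as was the case in 51.6% of all genes. The count of 5 was 3 without METTL7A1 replicate 2 or 3, where 3761 of 12927 and 4555 of 12954 genes tested were called. With an offset for the median change of the 40 nearest genes on the chromosome it was 2, namely Pabpc4 and Khsrp. Of all 13166 genes tested, 4147 were called with this offset, beside 5537 without it.

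**Figure D1:**
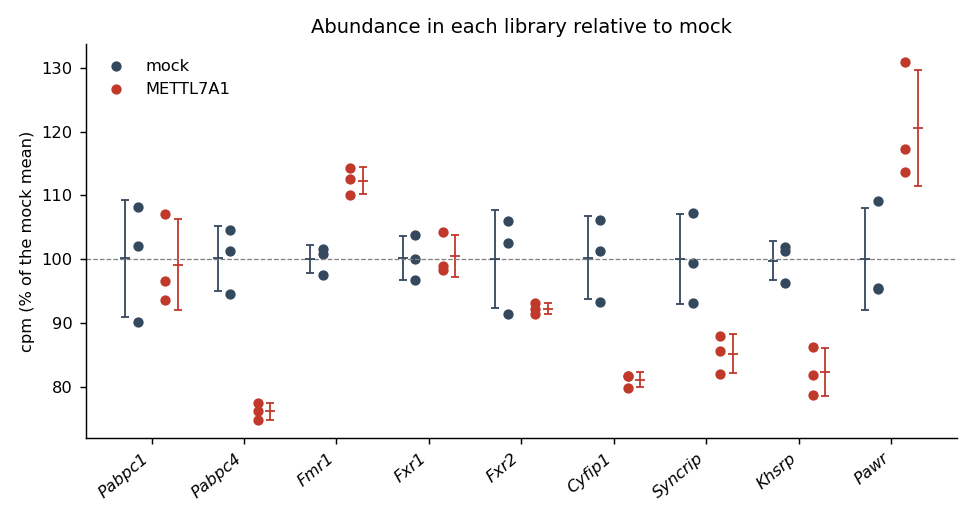
Abundance of the 9 tested genes in each library as a percentage of the mean of the mock libraries (cpm on TMM-scaled library sizes; points are libraries, bars are the mean ± SD of 3 libraries; the axis does not start at 0). METTL7A1 libraries lie below all mock libraries for Pabpc4, Cyfip1, Syncrip and Khsrp, above them for Fmr1 and Pawr, and among them for Pabpc1, Fxr1 and Fxr2.

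Levels between genes were compared per kilobase of exon, as cpm divided by exon length in kilobases (RPKM). Pabpc1 led with 348 ± 31.2 RPKM in mock (SD, n = 3), above 99.2% of the genes tested. Pabpc4 followed with 69.5 ± 3.40 and Fxr1 with 54.2 ± 1.81 RPKM. Khsrp (40 ± 1.29), Fxr2 (39.3 ± 3.07) and Syncrip (37.4 ± 2.62 RPKM) came next with libraries that overlapped from each to its neighbour, and Fmr1 (26.7 ± 0.674), Pawr (24.4 ± 1.91) and Cyfip1 (22.3 ± 1.44 RPKM) likewise overlapped in turn. Cyfip2 stood last at 0.011 ± 0.00486 RPKM. In METTL7A1 cells Pabpc4 (52.9 ± 0.957 RPKM) was no longer above Fxr1 (54.4 ± 1.83 RPKM) and the libraries of both overlapped, whereas Cyfip1 (18.1 ± 0.313 RPKM) lay below every library of Pawr (29.4 ± 2.22 RPKM).

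**Figure D2:**
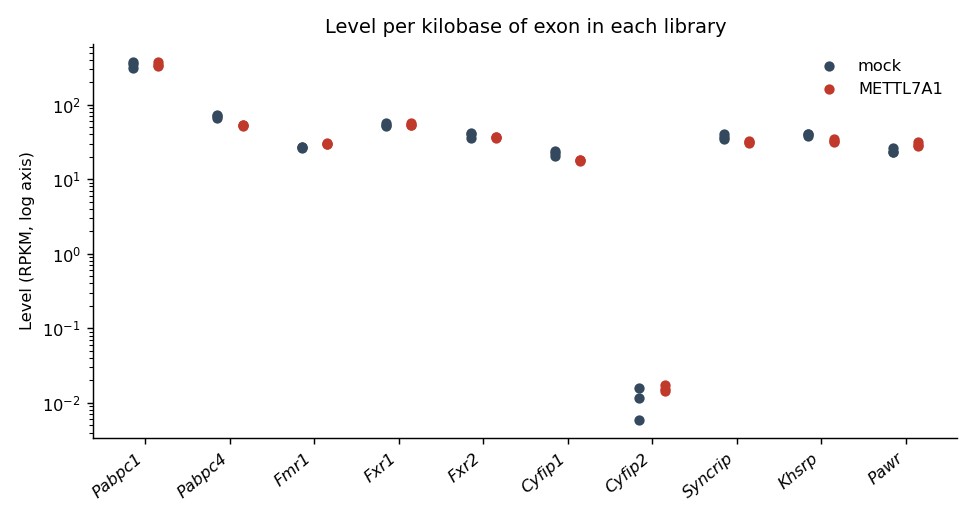
Level per kilobase of exon of the 10 genes in each library (RPKM, log axis; points are libraries). Pabpc1 lies near 348 RPKM in mock and 345 RPKM in METTL7A1, 8 genes lie between 18.1 and 69.5 RPKM in the group means, and Cyfip2 lies at 0.011 and 0.0157 RPKM.

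The poly(A)-binding proteins differed from each other. Pabpc1 (chromosome 15, 36595661 to 36608973, minus strand) had 947, 917 and 1050 cpm in METTL7A1 replicates 1 to 3 and 884, 1060 and 1000 cpm in mock replicates 1 to 3. The groups overlapped, and the log2 fold change of -0.01 (SE 0.10, 95% interval -0.23 to 0.20, edgeR adjusted p = 0.929) leaves changes within that interval undetected with 3 libraries in each group. The median of its 40 chromosome neighbours was -0.15.

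Pabpc4 (chromosome 4, 123282825 to 123298925, plus strand), which encodes the inducible poly(A)-binding protein, had 169, 166 and 172 cpm in METTL7A1 and 225, 232 and 210 cpm in mock. Every METTL7A1 library lay below every mock library. The fall, to 0.761 of the mock level, amounted to -0.39 on the log2 scale (SE 0.07, edgeR adjusted p = 0.00104), the largest among the 9 genes tested, and its 40 neighbours had a median of -0.03. It was called in all 15 alternative fits, with log2 fold changes of -0.42 to -0.36. Of the distinct 31-base stretches in its annotated transcripts 63.31% also occur in other genes, 59.75% in Gm10110 alone, which had at most 45 counts in any library. How reads with several matching places were counted is not given in the sources used here, so the level of Pabpc4 is uncertain. For Pabpc1 the shared stretches were 16.15%.

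The share of Pabpc1 in the PABPC pair rests on the same counts as the changes above, including the uncertain level of Pabpc4. Per kilobase, Pabpc1 made up 86.4%, 86.2% and 87.4% of the sum of the pair in METTL7A1 and 81.7%, 83.8% and 84.4% in mock. The ranges did not overlap, and the means differed by 3.39 percentage points (86.7 ± 0.6% against 83.3 ± 1.42%, SD, n = 3 each; exact two-sided permutation test, p = 0.1, adjusted p = 0.125 over the 5 shares tested). With 3 libraries against 3 the smallest p that this test can give is 0.1, so it cannot pass the threshold.

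**Figure D3:**
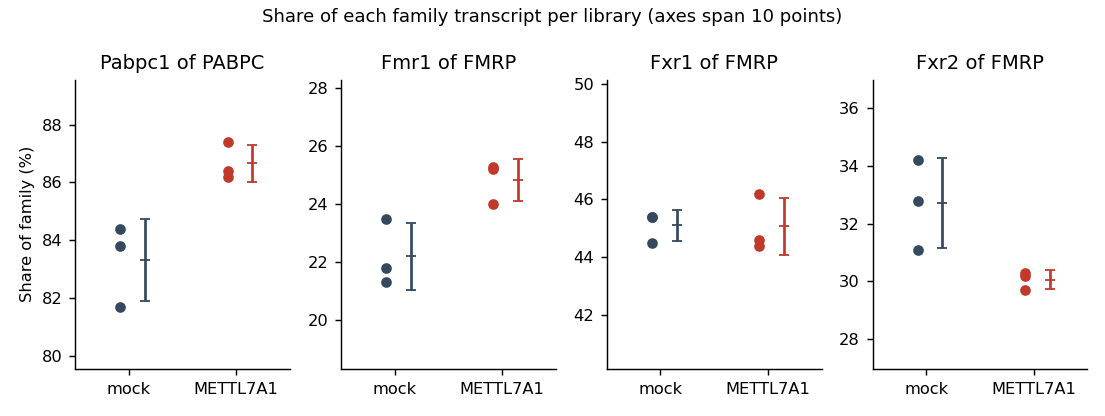
Share of Pabpc1 in the PABPC pair and of Fmr1, Fxr1 and Fxr2 in the FMRP family in each library (percent of the summed counts per kilobase of exon; points are libraries, bars are the mean ± SD of 3; each axis spans 10 percentage points and does not start at 0). METTL7A1 libraries lie above mock for Pabpc1 (86.2% to 87.4% against 81.7% to 84.4%) and Fmr1, below mock for Fxr2, and among them for Fxr1.

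A list of 24 genes held further poly(A)-binding proteins, partners that bind PABPC and factors that shorten the tail. Of these 24 genes 19 were tested and 8 were called, 6 higher and 2 lower, with a median log2 fold change of 0.06. This share of 42.1% equalled that of all genes. The catalytic subunit of the PAN deadenylase and its adaptor went apart: Pan2 rose from 33.1 ± 2.08 to 60.5 ± 5.86 cpm (SD, n = 3 each; log2 fold change 0.87, SE 0.09, edgeR adjusted p = 2.31e-05), whereas Pan3 fell from 123 ± 8.07 to 91.6 ± 4.36 cpm (-0.42, SE 0.07, edgeR adjusted p = 0.00089). With the neighbour offset Pan2 was still called at 0.46, and the call of Pan3 was lost (-0.04). Paip2, whose product binds PABPC and represses translation, rose from 32.8 ± 3.3 to 56.3 ± 2.92 cpm (0.77, SE 0.09, edgeR adjusted p = 4.48e-05), or 0.46 with the offset, where it was still called. Of the 40 neighbours of Pan2 and of Paip2, 37 and 34 were higher in METTL7A1 cells. Pabpn1, the nuclear poly(A)-binding protein, fell from 35.7 ± 2.15 to 28.8 ± 4.06 cpm (-0.31, SE 0.10, edgeR adjusted p = 0.0315), but this call was lost with the offset (-0.01) and without METTL7A1 replicate 2, METTL7A1 replicate 3 or mock replicate 1. The other PABPC paralogs Pabpc1l, Pabpc2, Pabpc4l, Pabpc5 and Pabpc6 were under the abundance filter.

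In the FMRP family no member passed the test, and the members did not all lie the same way. Fmr1 (chromosome X, 68678541 to 68717963, plus strand) had 131, 134 and 136 cpm in METTL7A1 and 116, 120 and 121 cpm in mock. The METTL7A1 libraries were all above the mock libraries, by 0.17 on the log2 scale (SE 0.06, 95% interval 0.03 to 0.31, edgeR adjusted p = 0.0567). This value lay close to the threshold and was past it in 5 of 15 alternatives, namely with upper quartile scaling (0.0438), without the 20 most abundant genes (0.0383), with DESeq2 (0.0439), without METTL7A1 replicate 1 (0.0449) and without mock replicate 3 (0.0437). The highest adjusted p over the alternatives was 0.187.

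Fxr1 (chromosome 3, 34019943 to 34070322, plus strand), the most abundant of the family per kilobase, had 194, 183 and 184 cpm in METTL7A1 and 186, 193 and 180 cpm in mock. The groups overlapped (log2 fold change 0.00, SE 0.07, 95% interval -0.15 to 0.15, edgeR adjusted p = 0.964). Its exons share 178 bases with Dnajc19 on the opposite strand, 5.18% of its length. Fxr2 (chromosome 11, 69632990 to 69653297, plus strand) had 107, 106 and 108 cpm in METTL7A1 and 123, 119 and 106 cpm in mock. Mock replicate 3 lay just below the METTL7A1 libraries and the other mock libraries above them, and the log2 fold change was -0.12 (SE 0.07, 95% interval -0.28 to 0.04, edgeR adjusted p = 0.227), the same as the median of its neighbours.

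As shares of the summed family per kilobase, Fmr1 took 24%, 25.2% and 25.3% in METTL7A1 and 21.3%, 21.8% and 23.5% in mock, a difference of 2.6 points. Fxr2 took 29.7%, 30.2% and 30.3% in METTL7A1 and 34.2%, 32.8% and 31.1% in mock, a difference of -2.61 points. Neither pair of ranges overlapped, and both tests gave the smallest p possible (exact two-sided permutation test, p = 0.1, adjusted p = 0.125). The share of Fxr1 was 45.1 ± 0.989% in METTL7A1 and 45.1 ± 0.54% in mock (SD, n = 3 each; exact permutation test, p = 1.0). Since the 3 shares sum to the whole, they are not independent of each other.

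Among 19 genes whose products join FMRP in granules, all tested, 9 were called (47.4%, beside 42.1% of all genes), 3 higher and 6 lower, with a median log2 fold change of -0.08. With the neighbour offset the count was 3 of 19, beside 4147 of all 13166 genes. Pura, a single-stranded nucleic acid-binding protein of transport granules, rose from 45.3 ± 0.473 to 60.5 ± 3.17 cpm (0.42, SE 0.07, edgeR adjusted p = 0.000633), and Stau1, which binds double-stranded RNA, rose by 0.31 on the log2 scale (SE 0.07, edgeR adjusted p = 0.00307). Tdrd3, a Tudor domain protein that associates with FMRP, fell from 43.6 ± 6.39 to 31.9 ± 2.15 cpm (-0.46, SE 0.10, edgeR adjusted p = 0.0049), and Nufip1, a nuclear partner of FMRP, fell from 45.7 ± 0.86 to 34.1 ± 1.11 cpm (-0.42, SE 0.07, edgeR adjusted p = 0.000574). With the offset none of these 4 was called (0.10, 0.14, -0.13 and -0.11).

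The CYFIP pair consisted almost wholly of Cyfip1. Cyfip1 (chromosome 7, 55842071 to 55932602, plus strand) had 118, 121 and 121 cpm in METTL7A1 and 150, 157 and 138 cpm in mock. All METTL7A1 libraries lay below all mock libraries, a fall to 0.809 of the mock level (log2 fold change -0.31, SE 0.07, edgeR adjusted p = 0.0052). The call held whichever library was left out. With the neighbour offset it was lost (-0.16, adjusted p = 0.111), and the 40 neighbours had a median of -0.15. The end of its last exon shares 1316 bases, 19.8% of its exon length, with Nipa2 on the opposite strand, which had up to 1502 counts and itself changed by -0.20 on the log2 scale (SE 0.07, edgeR adjusted p = 0.0336). The strand setting of the counting is not stated. AY036118, all of whose bases are also part of Gm42418 on the other strand, held 92294 to 2665015 counts, and Gm42418 held 67951 to 224214. Counting without strand could not have told the reads of AY036118 from those of Gm42418. Whether reads of Nipa2 were counted for Cyfip1 was not tested.

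Cyfip2 (chromosome 11, 46193850 to 46312859, minus strand) had 2, 3 and 3 counts in METTL7A1 and 2, 1 and 2 counts in mock, too few to test. The sums of 8 counts (exact Poisson 95% interval 3.45 to 15.8) and 5 counts (1.62 to 11.7) overlapped, and the intervals cover counting error only. Of all CYFIP counts, Cyfip2 held 0.0914% in METTL7A1 (8 of 8754, Clopper-Pearson 95% interval 0.0395% to 0.18%) and 0.0501% in mock (5 of 9975, 0.0163% to 0.117%). Its share per kilobase, 0.0869% against 0.0496%, gave p = 0.1 (exact permutation test, adjusted p = 0.125), and with 1 to 3 counts per library a difference was not detectable at this depth.

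A list of 11 genes held further subunits and partners of the WAVE complex, and also Eif4e, whose product CYFIP1 binds. Of these 11 genes 8 were tested and 4 were called (50%, beside 42.1% of all genes), 2 higher and 2 lower, with a median log2 fold change of 0.06. Abi1 rose from 91.2 ± 3.56 to 114 ± 3.2 cpm (0.33, SE 0.07, edgeR adjusted p = 0.00224; 0.19 and still called with the neighbour offset) and its paralog Abi2 rose by 0.27 (SE 0.07, edgeR adjusted p = 0.0101), a call that was lost without METTL7A1 replicate 2 (adjusted p = 0.0535). Wasf1, which encodes the WAVE1 subunit, fell from 12.7 ± 0.723 to 8.05 ± 0.653 cpm (-0.66, SE 0.11, edgeR adjusted p = 0.000802), or -0.16 with the neighbour offset, where it was not called. The small subunit Brk1 fell from 38.3 ± 3.34 to 28.1 ± 2.97 cpm (-0.44, SE 0.10, edgeR adjusted p = 0.00359). Wasf3, Nckap1l and Abi3 were under the abundance filter.

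**Figure D4:**
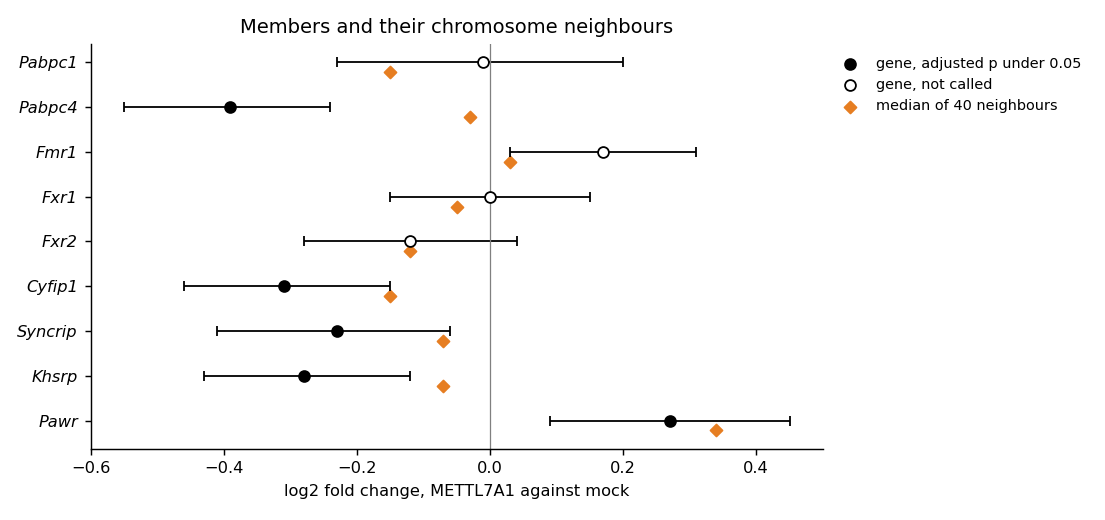
Log2 fold change of METTL7A1 against mock for the 9 tested genes (circles, with 95% intervals from edgeR; filled where the adjusted p was under 0.05) and the median of the 40 nearest genes on the chromosome (diamonds). For Pabpc4 (-0.39) and Khsrp (-0.28) the neighbours lie near 0 (-0.03 and -0.07), whereas for Pawr (0.27) the neighbours lie higher than the gene (0.34).

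Syncrip and Khsrp both fell. Syncrip (chromosome 9, 88447009 to 88482559, minus strand) had 337, 314 and 328 cpm in METTL7A1 and 357, 381 and 411 cpm in mock. The libraries did not overlap, and RNA fell to 0.852 of the mock level (log2 fold change -0.23, SE 0.08, edgeR adjusted p = 0.0358). Leaving out replicate 2 or 3 of either group ended the call (adjusted p of 0.0703 to 0.161), as did the replicate block (0.0727), the omission of the abundance filter (0.144) and the neighbour offset (0.145). The direction was the same in all 15 alternatives, at -0.26 to -0.16. Its exons overlap 344 bases of Gm20537 on the same strand, a gene with at most 1 count.

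Khsrp (chromosome 17, 57021058 to 57031507, minus strand) had 126, 131 and 138 cpm in METTL7A1 and 163, 162 and 154 cpm in mock. Every METTL7A1 library was below every mock library, and the level was 0.826 of that in mock (log2 fold change -0.28, SE 0.07, edgeR adjusted p = 0.00787). It was called in all 15 alternatives, at -0.31 to -0.21 with an adjusted p of at most 0.0426. Its 40 neighbours had a median of -0.07.

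Among 21 genes that work with SYNCRIP or act on AU-rich elements, 19 were tested and 6 were called (31.6%, beside 42.1% of all genes), 3 higher and 3 lower, with a median of -0.10. The count was 3 without METTL7A1 replicate 2, without mock replicate 1 and with the neighbour offset. In these fits 3761 of 12927, 4251 of 12997 and 4147 of 13166 genes tested were called. Rbm47, an RNA-binding protein that shares the RRM architecture of SYNCRIP, rose from 37.0 ± 1.04 to 49.4 ± 4.57 cpm (0.42, SE 0.08, edgeR adjusted p = 0.00177). Parn, a deadenylase that KSRP can recruit, rose from 24.9 ± 1.35 to 31.4 ± 0.934 cpm (0.34, SE 0.08, edgeR adjusted p = 0.00498), or 0.09 with the offset, where it was not called. Zfp36l1, which promotes decay of AU-rich mRNAs, fell from 39.5 ± 4.28 to 26.1 ± 1.47 cpm (-0.60, SE 0.09, edgeR adjusted p = 0.000432), or -0.17 with the offset, where it was not called. Hnrnpab fell from 506 ± 48.3 to 407 ± 39.8 cpm (-0.32, SE 0.10, edgeR adjusted p = 0.0233), but was not called when replicate 1 or 2 of either group was left out. Igf2bp3 and A1cf were under the filter.

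Pawr (chromosome 10, 108332189 to 108414391, plus strand) was the only one of the 9 genes called as higher. It had 50.7, 52.3 and 58.4 cpm in METTL7A1 and 42.6, 48.7 and 42.5 cpm in mock. The lowest METTL7A1 library was above the highest mock library, and the RNA rose 1.2-fold (log2 fold change 0.27, SE 0.08, edgeR adjusted p = 0.0226). The call was lost without METTL7A1 replicate 2 (adjusted p = 0.0564), without METTL7A1 replicate 3 (0.0869) and without mock replicate 1 (0.0669), the library with the highest share of AY036118. Of its 40 nearest genes 36 were higher in METTL7A1 cells, with a median of 0.34. With that median as an offset the log2 fold change of Pawr was -0.08 (adjusted p = 0.533). None of its 31-base stretches occurs in another gene.

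Of 11 partners of PAR-4, 10 were tested and 5 were called (50%, beside 42.1% of all genes). All 5 were higher, and 21.1% of all genes were called as higher. The partner list had a median log2 fold change of 0.25. The count was 3 without METTL7A1 replicate 2, 2 without METTL7A1 replicate 3, 3 without mock replicate 3 and 3 with the replicate block. In these fits, in the same order, 3761 of 12927, 4555 of 12954, 5753 of 12930 and 4810 of 13166 genes tested were called. Sqstm1, which encodes the autophagy adaptor p62 that also binds atypical protein kinase C, rose from 163 ± 15.8 to 288 ± 26.4 cpm (0.82, SE 0.09, edgeR adjusted p = 5.93e-05). Dapk3, the kinase ZIPK that binds PAR-4 through its leucine zipper, rose from 14.6 ± 1.4 to 22.1 ± 0.893 cpm (0.59, SE 0.10, edgeR adjusted p = 0.000567). Both were called in all 15 alternatives, but with the neighbour offset Dapk3 was at 0.32 (adjusted p = 0.0262), with 37 of its 40 neighbours higher, and Sqstm1 at 0.87. Wt1 was under the filter.

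**Figure D5:**
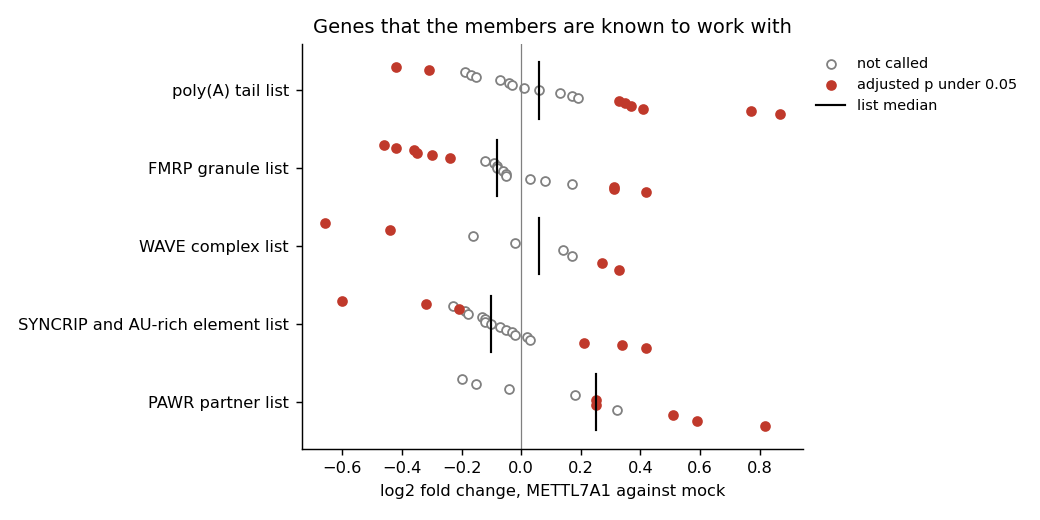
Log2 fold change of METTL7A1 against mock for the tested genes of the 5 partner lists (points are genes, filled where the edgeR adjusted p was under 0.05; lines are list medians of 0.06, -0.08, 0.06, -0.10 and 0.25). Called genes lie on both sides of 0 in the first 4 lists, and all 5 called PAR-4 partners lie above 0.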

How the data were processed

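Per the labels, stranded total RNA libraries depleted of ribosomal RNA were sequenced on an Illumina NovaSeq instrument. The submitters' processing notes name bcl2fastq 2.20.0.422, STAR 2.5.3a, featureCounts and R 3.5.1 with build GRCm38 (mm10). The authors deposited raw counts per gene with no normalization, together with each gene's exons and exon length. Totals were 18386780 to 28459338 counts per library. With a biological coefficient of variation of 0.0915, SEs of the tested members' log2 fold changes were 0.06 to 0.10.

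Groups were taken from sample titles. Counts were tested in R 4.3.3 with edgeR 4.0.16 (glmQLFit and glmQLFTest, TMM scaling, no covariate) on 13166 genes with at least 1 cpm in at least 3 libraries, after a trial on simulated data, and p values were adjusted by Benjamini-Hochberg over all of them. RPKM used the deposited exon lengths. Shares within families were tested by an exact permutation test in scipy 1.17.1. Shared 31-base stretches came from GENCODE M21 transcripts and promoters from RefSeq. The members, partner lists, tests and alternatives were chosen with earlier results of these data known. Beside the members and Mettl7a1, up to 2 called genes with the largest rise and 2 with the largest fall per list are named, and genes under the filter where a list has 5 or fewer. Nipa2, Dnajc19, Gm10110, Gm20537 and the AY036118 and Gm42418 pair are named for their overlap or share of reads, chosen after their values were seen. Alternatives were other scalings and filters, removal of the 20 most abundant genes, a replicate block, omission of each library, DESeq2 1.42.0, voom of limma 3.58.1 and an offset for the 40 nearest genes with a mean log2 cpm over 2. Different libraries of a group differed beyond sampling noise, so all 6 were kept as separate. The smallest exact p for 3 against 3 is 0.1.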

Additional observations from a re-analysis of the deposited data

How the results depend on the processing

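The counts of called genes and the log2 fold changes of the named genes were recomputed under 15 alternatives. Pabpc4 and Khsrp, and of the partner genes Pan2, Paip2, Abi1, Brk1, Rbm47, Sqstm1 and Dapk3, were called in all of them. The neighbour offset lowered Pan2 (0.46), Paip2 (0.46), Abi1 (0.19) and Dapk3 (0.32) by over 1.5 times. The count of called members stayed at 4 to 6 except with the neighbour offset (2) and without METTL7A1 replicate 2 or 3, and ranged from 3 to 6 with a library left out. With the neighbour offset the FMRP granule list had 3 called genes and the SYNCRIP and AU-rich element list 3, each of 19 tested. Of all 13166 genes tested, 4147 were called with this offset. With a library left out the counts ranged from 6 to 9 for the poly(A) tail list, 8 to 10 for the FMRP granule list, 3 to 5 for the WAVE complex list, 3 to 7 for the SYNCRIP and AU-rich element list and 2 to 5 for the PAWR partner list. Over all genes the calls then ranged from 3761 of 12927 (without METTL7A1 replicate 2) to 5753 of 12930 (without mock replicate 3). Replicate numbers did not pair the libraries, with correlations of -0.15, 0.20 and -0.37 between the deviations of libraries 1, 2 and 3 from their group means. With the replicate block 4 members were called, Syncrip being lost (-0.23, adjusted p = 0.0727), and 3 PAWR partners. Of all 13166 genes tested, 4810 were called with this block. Pawr went to -0.08 with the neighbour offset. The cause was not tested. The differences in family share ranged, with a library left out, over 2.58 to 3.93 points for Pabpc1, 2.13 to 3.26 for Fmr1, -0.564 to 0.334 for Fxr1, -3.42 to -1.83 for Fxr2 and 0.0249 to 0.0469 for Cyfip2. Depth limits Cyfip2, with at most 3 counts a library.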
